A study of Mus musculus with 12 samples.

Results

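The 9 genes described here encode the angiotensin precursor, enzymes that cut the angiotensin peptides, and their receptors. They are Agt, Ace, Agtr1a, Agtr1b, Mas1, Enpep, Anpep, Lnpep and Atp6ap2, chosen by symbol as genes of the angiotensin system, in a list drawn up with earlier results of these data known. All 9 were present among the 24452 gene symbols of the deposited count data. RNA came from kidney cortex of C57BL/6 mice, and every library was labelled adult and male. The 12 libraries fell into 4 groups of 3. GN_captopril and GN_water came from mice with glomerulonephritis (GN, inflammation of the glomeruli, the kidney's filters) that received captopril or water. Control_captopril and Control_water came from mice without it that received the same drug or water. For GN, mice were injected intraperitoneally with horse spleen apoferritin, 10 mg at a time and 5 times a week, and with 100 micrograms of lipopolysaccharide 3 times a week, over 6 weeks. Controls had saline injections on that timetable, and tissue was taken at week 9. The labels give no captopril dose, and they do not say whether a library is 1 mouse or a pool, so p-values measure the spread between these libraries, which may be technical.

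Angiotensinogen, the product of Agt, is cut by renin to angiotensin I, and angiotensin-converting enzyme (ACE) trims that peptide to angiotensin II, which raises blood pressure through the type 1 receptor. Aminopeptidases then shorten angiotensin II to smaller peptides with receptors and effects of their own, and the Mas receptor answers a product that opposes angiotensin II. In the kidney the pathway acts locally as well as through the blood: the proximal tubule makes angiotensinogen and carries ACE and several aminopeptidases on its brush border. Captopril blocks ACE by binding the zinc ion in its active site.

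The zinc ion is held by a short His-Glu-X-X-His stretch, which ACE shares with the 3 aminopeptidases in the list. The coding bases of these sites are printed to show what the drug's target has in common with the other peptidases. They were read from GENCODE M21 transcripts on GRCm38 (the same assembly as mm10), 5′ to 3′ on the coding strand, and capitals mark the 5 codons of the stretch. ACE carries the stretch once in each of its catalytic domains, at codon 395 in exon 8 (chr11:105972895-105972939, plus strand) and at codon 993 in exon 20 (chr11:105985079-105985123, plus strand). In Enpep it starts at codon 385 and its printed bases span exons 5 and 6 (chr3:129309124-129309801, minus strand). In Anpep it starts at codon 387, across exons 6 and 7 (chr7:79838990-79839195, minus strand). In Lnpep it starts at codon 464, also across exons 6 and 7 (chr17:17568423-17570906, minus strand).
Ace site 1: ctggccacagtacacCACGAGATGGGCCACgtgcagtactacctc
Ace site 2: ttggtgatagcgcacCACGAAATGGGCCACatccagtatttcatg
Enpep: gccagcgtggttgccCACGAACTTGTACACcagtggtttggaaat
Anpep: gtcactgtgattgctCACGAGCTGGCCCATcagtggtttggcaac
Lnpep: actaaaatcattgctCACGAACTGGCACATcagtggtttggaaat

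Library totals ran from 14.2 to 22.8 M counts (M, mega). In 6 libraries the sex-linked RNAs went against the label male. A sum over 4 Y-linked genes was 124 to 129 CPM (counts scaled to the size of the library) in GN_captopril and 121 to 144 CPM in Control_water, and at most 0.101 CPM in GN_water and Control_captopril. Xist, which coats and silences 1 of the X chromosomes of a female cell, was 181 to 212 CPM in GN_water and 314 to 375 CPM in Control_captopril, and at most 0.182 CPM elsewhere. Every comparison of groups that share a disease or a drink therefore sets Y-linked libraries against Xist libraries (so called from here on), and the effect of the label cannot be told apart from that split. The GN effect averaged over drinks and the captopril effect averaged over disease are balanced for it. The interaction, the captopril effect in GN minus that in controls, equals the Y-linked libraries minus the Xist libraries, doubled. GN_water against Control_captopril and GN_captopril against Control_water compare libraries with the same markers but differ in both labels. All markers of proximal tubule (12), distal nephron (7) and podocyte (5) were present. No list of medulla markers was set beside them, so this checks the label kidney and cannot check cortex. Summed proximal tubule markers were 20000 to 22200 CPM in GN_captopril, 15000 to 16700 in GN_water, 18500 to 19100 in Control_captopril and 23200 to 24800 in Control_water. Macrophage markers were higher in the averaged GN comparison for 9 of 9 genes. Adrenal cortex markers were unevenly spread. They summed to 2740 counts in replicate 3 and 1973 in replicate 2 of GN_captopril and to 8278 in replicate 3 of Control_captopril, while the remaining 9 libraries had 1104 to 1548. In the water groups most of the sum was Fdx1, with 1105 to 1528 counts in Control_water and 1145 to 1260 in GN_water. Cyp11b1, Cyp21a1 and Hsd3b1 had at most 2 counts in any library of those groups.

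Per kilobase of exon, Ace was the most abundant of the 9 RNAs, with a mean of 57.0 CPM per kb over all libraries (range 39.2 to 76.8). Atp6ap2 had 55.1 CPM per kb, Agt 45.8, Anpep 40.1 and Enpep 36.3. The ranges of these neighbours overlapped, so their order within the upper part of the list was not fixed. Ace came first in GN_captopril and Control_water, while Atp6ap2 came first in GN_water and Control_captopril. Agtr1a, the main type 1 receptor gene, had 25.6 CPM per kb (23.6 to 28.5). Lnpep followed at 2.58 CPM per kb (2.05 to 3.39) and Mas1 at 0.575 (0.0626 to 1.38), each below the lowest library of the gene before it. Agtr1b was at the edge of detection, with 0.0268 CPM per kb. Exon lengths were those of GENCODE M21, and whether the authors counted reads over introns as well is not given in the sources used here.

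**Figure D1:**
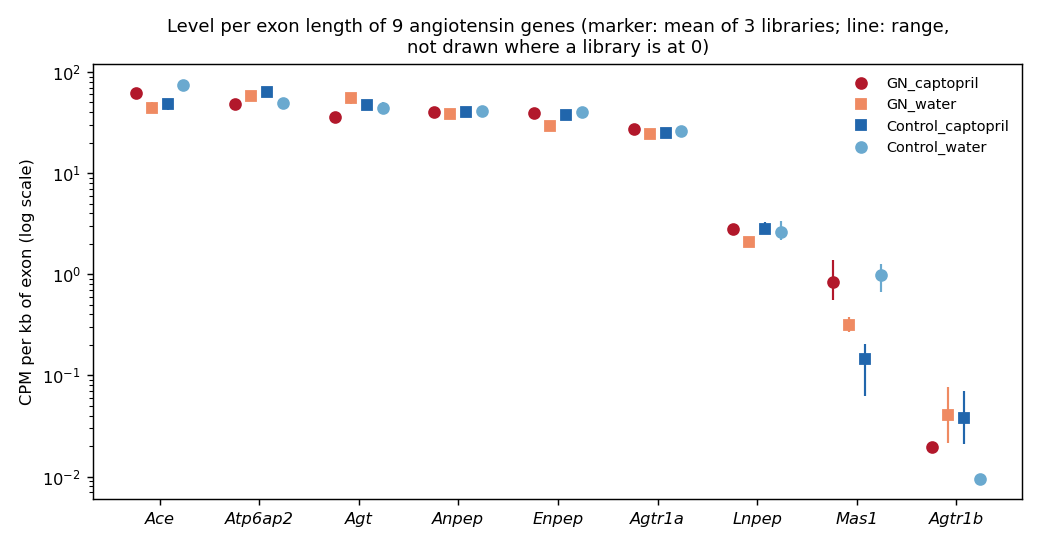
Level of each gene in CPM per kb of exon (log scale) by group, with the mean of 3 libraries as a marker and their range as a line where no library is at 0. From Ace to Agtr1a the genes sit between 23.6 and 76.8 CPM per kb, and Lnpep, Mas1 and Agtr1b lie below them in that order.

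Of the 9 genes, 8 passed the filter on low counts (a minimum count near 10) and were tested among 14618 genes, and Agtr1b did not. A gene is called, and said to rise or fall, where its Benjamini-Hochberg adjusted p over all genes was under 0.05 in edgeR's quasi-likelihood test. Fold changes are on the log2 scale with their SE. In GN averaged over drinks, 0 of the 8 rose and 1 (Enpep) fell by edgeR, while 16.3% of all genes tested rose and 14.6% fell (30.9% in all). In captopril averaged over disease, 0 rose and 1 (Agt) fell, while 3.17% of all genes rose and 3.34% fell (6.51% in all). The interaction called 4 higher (Ace, Mas1, Enpep, Agtr1a) and 2 lower (Atp6ap2, Agt), with 23.6% of all genes higher and 27.1% lower (50.7% in all). The median change of the 8 was -0.06 log2 in the GN average, 0.04 in the captopril average and 0.27 in the interaction, beside -0.01, -0.02 and -0.07 over all genes tested. In the GN average, 1 of 8 lay below the background share, and in the captopril average a single call is too few to set against it. In the interaction, 6 of 8 lay above the background share, and that excess was not tested.

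The number of calls also varied between single pairs of groups, for these genes as for all genes. GN_captopril over GN_water had 5 higher and 2 lower, beside 19.6% of all genes higher and 25.5% lower (45.1% in all). GN_water over Control_water had 2 higher and 3 lower, beside 27.4% of all genes higher and 23.9% lower (51.2% in all). GN_captopril over Control_captopril had 2 higher and 2 lower, beside 20.5% higher and 19.3% lower (39.8% in all). Control_captopril over Control_water had 1 higher and 2 lower, beside 15.4% higher and 17.0% lower (32.4% in all). Where the markers matched, GN_water over Control_captopril had 0 higher and 3 lower, beside 16.9% of all genes higher and 13.2% lower (30.1% in all). GN_captopril over Control_water had 0 higher and 0 lower of 8, beside 7.05% higher and 5.02% lower (12.1% in all). In that last comparison 2 of the 8 had an unadjusted p under 0.05, and DESeq2 called 1, Agt. These comparisons share groups and are not independent of each other.

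**Figure D2:**
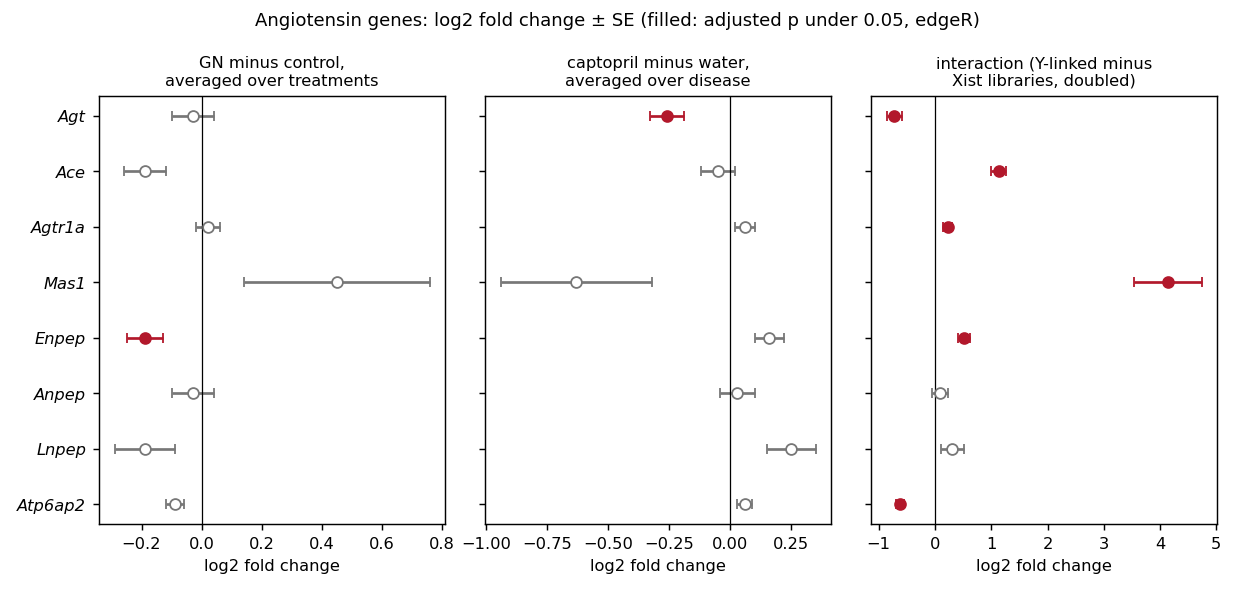
Log2 fold change (x axis, scales differ between panels) of the 8 genes tested, with SE bars, for GN minus control, captopril minus water and the interaction; filled points passed an adjusted p of 0.05 in edgeR. Enpep is the filled point in the first panel and Agt in the second, and in the third Mas1 lies farthest out at 4.14.

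Agt (chromosome 8, 124556534 to 124569706, minus strand of GRCm38) encodes the precursor from which every angiotensin peptide is cut. Its level was 67.0, 67.1 and 70.5 CPM in GN_captopril, 112, 91.5 and 111 CPM in GN_water, 97.1, 81.9 and 90.0 CPM in Control_captopril, and 76.9, 95.0 and 79.3 CPM in Control_water. All 3 GN_captopril libraries lay below every other library. Among the other 9 the groups overlapped. Agt fell in GN_captopril relative to GN_water by 0.62 on the log2 scale (SE 0.10, edgeR adjusted p = 0.000194) and relative to Control_captopril by 0.40 (SE 0.10, adjusted p = 0.00549). Against Control_water, which carries the same sex-linked markers, the log2 difference was -0.30 ± 0.10 (adjusted p = 0.0652), and it was called by DESeq2 (-0.29, adjusted p = 0.0371) and without GN_water replicate 2 (-0.29, adjusted p = 0.0460). The other marker-matched pair, GN_water over Control_captopril, went the opposite way (0.23 ± 0.09, edgeR adjusted p = 0.0874). It was called without GN_water replicate 2 (0.27, adjusted p = 0.0455) and by limma on the deposited RPKM (0.29, adjusted p = 0.0494, and 0.26, adjusted p = 0.0463). Without GN_water replicate 1 or 3 it was 0.12 (adjusted p = 0.422) or 0.13 (adjusted p = 0.401). The GN average was -0.03 ± 0.07 (edgeR adjusted p = 0.743). In GN_water Agt was higher than in Control_water (log2 fold change 0.33 ± 0.10, adjusted p = 0.0115), a call lost without GN_water replicate 1 (0.23, adjusted p = 0.0943), without GN_water replicate 3 (0.24, adjusted p = 0.0880) or without Control_water replicate 1 (0.27, adjusted p = 0.0520). In controls alone captopril gave 0.10 ± 0.10 (adjusted p = 0.468). The captopril effect on Agt thus differed between GN and controls by -0.72 ± 0.14 (adjusted p = 0.000623), a difference that cannot be told apart from the Y-linked and Xist split.

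Averaged over disease, Agt was lower with captopril by 0.26 on the log2 scale (SE 0.07, edgeR adjusted p = 0.0388), and the groups overlapped. The call held in only 4 of the 12 fits that left out a library. It was lost without GN_captopril replicate 1 (-0.25, adjusted p = 0.0790) or 2 (-0.26, adjusted p = 0.0746) and without GN_water replicate 1 (-0.21, adjusted p = 0.121) or 3 (-0.21, adjusted p = 0.121). It was also lost without Control_captopril replicate 2 (-0.23, adjusted p = 0.0734) or 3 (-0.26, adjusted p = 0.0719) and without Control_water replicate 2 (-0.21, adjusted p = 0.0851) or 3 (-0.28, adjusted p = 0.0552). The size of the effect moved little, and all 12 values stayed between -0.29 and -0.21. Liver and fat also make angiotensinogen. Summed liver markers (4 genes) were 148 to 207 CPM in GN_captopril, 103 to 121 in GN_water, 101 to 124 in Control_captopril and 152 to 329 in Control_water. Of these 4 genes, 0 were called in the captopril average, and 2 were higher and 0 lower in the interaction. The part of liver RNA in the Agt values was not tested. Summed fat markers (4 genes) were 0.399 to 200 CPM in GN_captopril, 2.17 to 125 in GN_water, 35.0 to 112 in Control_captopril and 13.7 to 50.6 in Control_water, and none of the 3 tested was called in the captopril average.

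Ace (chromosome 11, 105967945 to 105989964, plus strand) encodes the enzyme that captopril inhibits. It had 295, 350 and 311 CPM in GN_captopril, 256, 200 and 214 CPM in GN_water, 251, 213 and 271 CPM in Control_captopril, and 381, 392 and 355 CPM in Control_water. The 6 libraries with Y-linked transcripts all lay above the 6 with Xist. Captopril-labelled libraries thus had more Ace RNA than water-labelled ones in GN (log2 fold change 0.51 ± 0.10, edgeR adjusted p = 0.00128) and less in controls (-0.62 ± 0.10, adjusted p = 0.000452). The interaction was 1.13 ± 0.14 (adjusted p = 2.54e-05), which is a mean difference of 0.57 log2 between Y-linked and Xist libraries. The disease comparisons turned round in the same way. Ace was lower in GN_water than in Control_water (-0.75 ± 0.10, adjusted p = 4.77e-05) and higher in GN_captopril than in Control_captopril (0.38 ± 0.10, adjusted p = 0.00998).

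Averaged over drinks, Ace was at -0.19 ± 0.07 log2 in GN (edgeR adjusted p = 0.0659), short of the threshold. DESeq2 put the same contrast at -0.19 with an adjusted p of 0.0357, and edgeR called it without GN_captopril replicate 2 (-0.22, adjusted p = 0.0397), GN_water replicate 1 (-0.27, adjusted p = 0.0118) or Control_captopril replicate 2 (-0.23, adjusted p = 0.0231). Between groups with matching markers, the difference was -0.13 ± 0.10 in GN_water against Control_captopril (adjusted p = 0.348) and -0.24 ± 0.10 in GN_captopril against Control_water (adjusted p = 0.148), and in the second the libraries did not overlap. The first became a call without GN_water replicate 1 (-0.30, adjusted p = 0.0458). Captopril averaged over disease gave -0.05 ± 0.07 (adjusted p = 0.708). Ace RNA in the cortex comes from proximal tubule and endothelium. Of 12 proximal tubule markers, 8 were lower and 0 higher in the GN average and 7 were higher and 4 lower in the interaction, while 5 of 6 endothelial markers were lower and 1 higher in the interaction. Their part in the Ace values was not tested, and in bulk tissue fewer cells of a type and less RNA per cell cannot be told apart. Ace counts were fractional in 11 of 12 libraries, and Gm11651, an antisense gene across 3506 of its exon bases, had at most 1 count in a library.

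**Figure D3:**
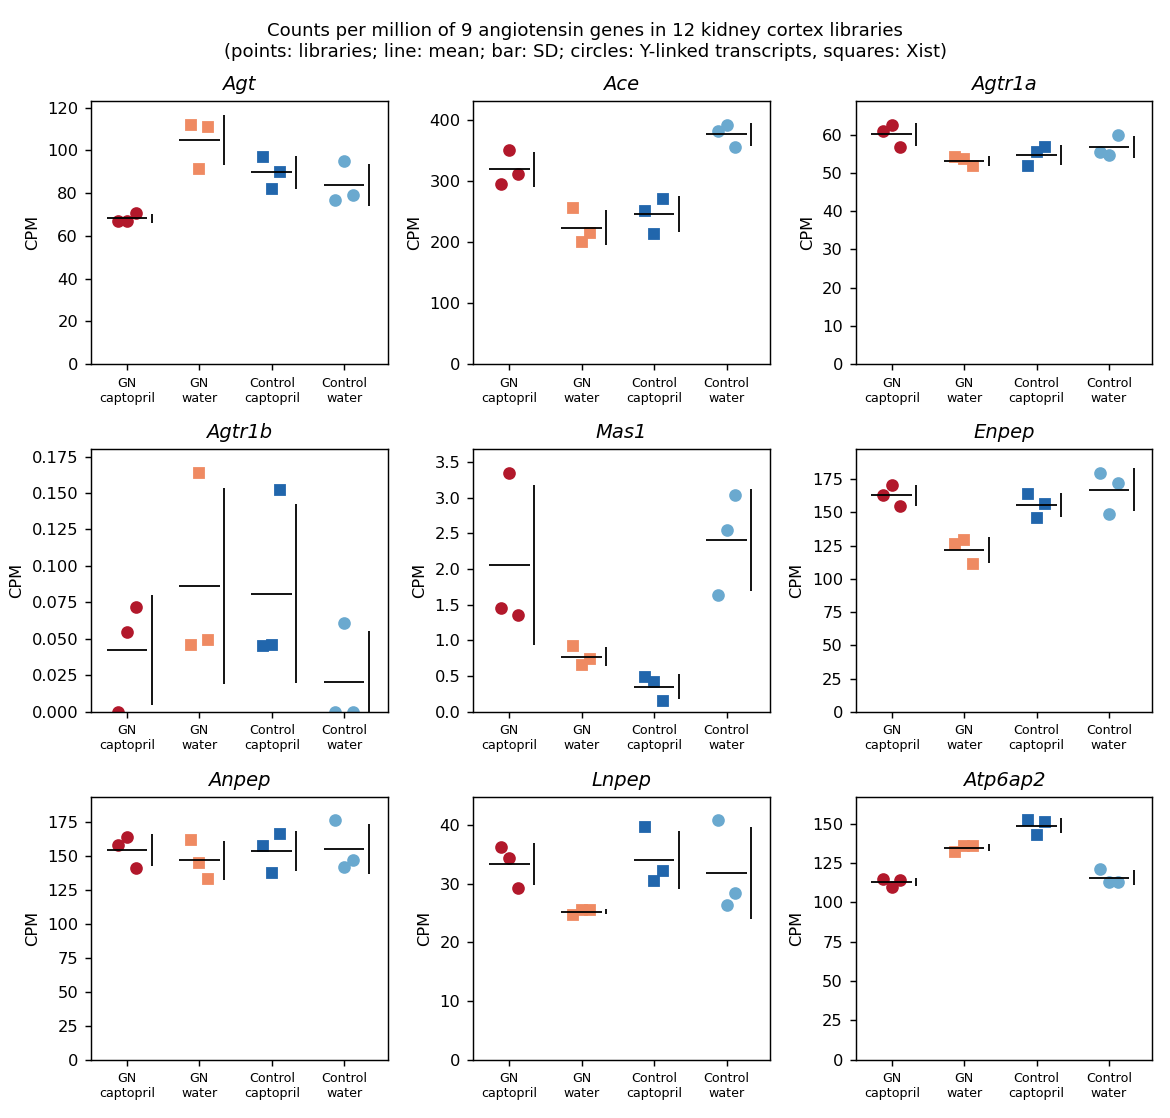
CPM of the 9 genes in each library (points) by group, with the mean as a horizontal line and the SD as a vertical bar; circles are libraries with Y-linked transcripts and squares libraries with Xist. For Ace and Mas1 all circles lie above all squares, and for Atp6ap2 all circles lie below them.

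Agtr1a (chromosome 13, 30336441 to 30382867, plus strand) and Agtr1b (chromosome 3, 20314473 to 20367177, minus strand) are the type 1 receptor genes that rodents carry as a pair. Agtr1a had 61.1, 62.7 and 56.8 CPM in GN_captopril, 54.2, 53.7 and 51.8 CPM in GN_water, 51.8, 55.6 and 56.9 CPM in Control_captopril, and 55.6, 54.8 and 60.1 CPM in Control_water. All 12 values lie within a narrow band. GN_water lay below GN_captopril and narrowly below Control_water, and the other groups overlapped. GN_water over Control_water was -0.09 ± 0.06 log2 (edgeR adjusted p = 0.208). GN_captopril over GN_water was 0.18 ± 0.06 log2 (edgeR adjusted p = 0.0266), and it was lost without GN_captopril replicate 1 (0.17, adjusted p = 0.0718) or replicate 2 (0.15, adjusted p = 0.103) and on the deposited RPKM (0.04 with a pseudocount of 0.1, adjusted p = 0.563, and 0.02 with 1, adjusted p = 0.559). GN_captopril over Control_captopril was 0.14 ± 0.06 (adjusted p = 0.0808), and past the threshold without GN_captopril replicate 3 (0.18, adjusted p = 0.0460). The GN average was 0.02 ± 0.04 (adjusted p = 0.726) and the captopril average 0.06 ± 0.04 (adjusted p = 0.395). The interaction of 0.23 ± 0.08 (adjusted p = 0.0345) was the smallest of the 6 that passed. It fell short without GN_captopril replicate 1 (0.22, adjusted p = 0.0658) or 2 (0.20, adjusted p = 0.0854), Control_captopril replicate 1 (0.20, adjusted p = 0.0798) or Control_water replicate 3 (0.19, adjusted p = 0.0859). On the deposited RPKM it was -0.01, a scaling that moved the median of all genes by -0.24 in this contrast.

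Agtr1b was nearly absent, with 14 counts in all libraries together. It had 0, 1 and 1 counts in GN_captopril, 1, 4 and 1 in GN_water, 1, 1 and 3 in Control_captopril, and 0, 1 and 0 in Control_water. No difference between groups was detectable at this depth, where 3 counts correspond to between 0.0452 and 0.0635 CPM over a group. The coding sequences of the 2 receptors are the same length, 1077 bases, and identical at 978 of them (90.8%), with 93.9% of residues in common and a longest identical run of 66 bases. Short reads from Agtr1a can therefore match Agtr1b, so even its few counts are uncertain. Summing both genes in 1 fit changed no Agtr1a call.

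Mas1 encodes the receptor of angiotensin 1-7. It was scarce, with 22, 61 and 19 counts in GN_captopril, 20, 16 and 15 in GN_water, 11, 9 and 3 in Control_captopril, and 35, 42 and 47 in Control_water. As CPM these were 1.46, 3.35 and 1.36 in GN_captopril, 0.916, 0.658 and 0.741 in GN_water, 0.494, 0.414 and 0.152 in Control_captopril, and 1.63, 2.55 and 3.03 in Control_water. Libraries with Y-linked transcripts all lay above those with Xist. The interaction of 4.14 ± 0.60 log2 (edgeR adjusted p = 7.64e-05) was the largest among the 8 genes and equals a mean difference of 2.07 between Y-linked and Xist libraries. In controls Mas1 was lower with captopril (-2.70 ± 0.45, adjusted p = 0.000433). In GN it was higher with captopril (1.44 ± 0.40, adjusted p = 0.0107), where GN_captopril replicate 2 carried much of the difference: without it the change was 0.87 (adjusted p = 0.0958). Mas1 was lower in GN_water than in Control_water (-1.62 ± 0.39, adjusted p = 0.00401). In GN_captopril it was higher than in Control_captopril (2.53 ± 0.45, adjusted p = 0.000675). With matching markers, GN_water over Control_captopril was 1.09 ± 0.50 (adjusted p = 0.115), without overlap. GN_captopril over Control_water was -0.18 ± 0.36 (adjusted p = 0.794). Neither average passed, at 0.45 ± 0.31 for GN (adjusted p = 0.289) and -0.63 ± 0.31 for captopril (adjusted p = 0.230). The GN average was 0.17 (adjusted p = 0.678) without GN_captopril replicate 2 and 0.29 (adjusted p = 0.529) without Control_captopril replicate 3.

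Mas1 (chromosome 17, 12841079 to 12868143, minus strand) lies across the 3′ end of Airn, a long noncoding RNA on the plus strand (chromosome 17, 12741311 to 12860136) that is known for silencing the imprinted Igf2r gene. Airn covers 2097 of the 2427 exon bases of Mas1. Airn had 3.59, 5.43 and 3.23 CPM in GN_captopril, 2.38, 2.14 and 2.13 CPM in GN_water, 1.88, 2.12 and 1.16 CPM in Control_captopril, and 5.49, 6.49 and 6.58 CPM in Control_water. The highest GN_captopril library (replicate 2) and the lowest of all 12 (Control_captopril replicate 3) were the same for both RNAs. Its interaction was 2.72 ± 0.32 (edgeR adjusted p = 1.26e-05). The libraries are labelled stranded, but the strand setting of the counting is not given in the sources used here. Reads of Mas1 and Airn therefore cannot be told apart, and every Mas1 value above may hold Airn reads.

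**Figure D4:**
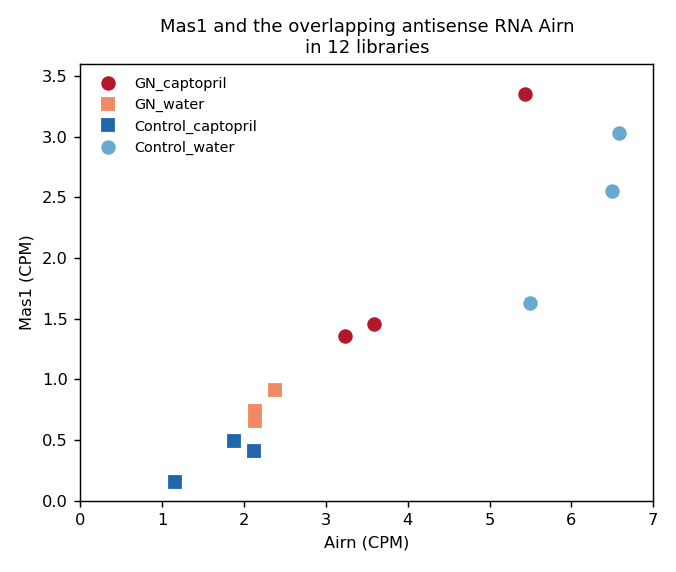
CPM of Mas1 (y axis) against CPM of the antisense RNA Airn (x axis), 1 point per library, coloured by group. The points with Xist (squares) lie at or below 0.916 CPM of Mas1 and 2.38 CPM of Airn, and the circles lie above both values.

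Enpep (chromosome 3, 129269175 to 129332720, minus strand) encodes aminopeptidase A, which removes the first residue of angiotensin II. It had 163, 171 and 155 CPM in GN_captopril, 126, 129 and 111 CPM in GN_water, 164, 146 and 156 CPM in Control_captopril, and 180, 149 and 172 CPM in Control_water. GN_water lay below all other libraries, and the other 3 groups overlapped. Enpep was the only gene of the 8 called in the GN average, with a log2 fold change of -0.19 ± 0.06 (edgeR adjusted p = 0.0196). All 12 fits that left out a library kept it. The call was lost on the deposited RPKM (-0.12 with a pseudocount of 0.1, adjusted p = 0.124) and when the libraries richest in adrenal markers, replicate 3 of GN_captopril and of Control_captopril, were left out (-0.18, adjusted p = 0.0717). The low values lay in GN_water, at -0.45 ± 0.08 against Control_water (adjusted p = 0.000368) and -0.35 ± 0.08 against the marker-matched Control_captopril (adjusted p = 0.00510). In GN_captopril the differences were 0.07 ± 0.08 against Control_captopril (adjusted p = 0.523) and -0.04 ± 0.08 against the marker-matched Control_water (adjusted p = 0.806). Enpep rose in GN_captopril relative to GN_water by 0.42 ± 0.08 (adjusted p = 0.000968), and the interaction was 0.52 ± 0.11 (adjusted p = 0.00170). On RPKM the interaction was 0.26 with a pseudocount of 0.1 (adjusted p = 0.0581) and 0.19 with 1 (adjusted p = 0.0592). Podocytes and proximal tubule both express Enpep. Podocyte markers (5 genes) summed to 338 to 423 CPM in GN_captopril, 535 to 653 in GN_water, 604 to 644 in Control_captopril and 422 to 484 in Control_water, with 3 lower and 1 higher in the GN average. Summed proximal tubule markers were lowest in GN_water, as Enpep was, but not every marker of that list was. Lrp2, Cubn, Slc5a2 and Slc22a8 had their lowest mean in GN_captopril, Slc5a12 in Control_water and Aqp1 in Control_captopril. The part of these markers in the Enpep values was not tested.

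Anpep (chromosome 7, 79821803 to 79861059, minus strand) encodes aminopeptidase N, a brush border enzyme that shortens angiotensin III among many other peptides. It had 158, 164 and 141 CPM in GN_captopril, 162, 145 and 133 CPM in GN_water, 157, 137 and 166 CPM in Control_captopril, and 176, 142 and 147 CPM in Control_water. All 4 groups overlapped, and none of the 9 comparisons called it. The GN average was -0.03 ± 0.07 log2 (edgeR adjusted p = 0.756), the captopril average 0.03 ± 0.07 (adjusted p = 0.855) and the interaction 0.09 ± 0.14 (adjusted p = 0.597). These errors leave room for small changes either way.

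Lnpep (chromosome 17, 17521410 to 17625050, minus strand) encodes the insulin-regulated aminopeptidase, which also binds angiotensin IV. It had 36.3, 34.4 and 29.3 CPM in GN_captopril, 24.7, 25.6 and 25.5 CPM in GN_water, 39.7, 30.4 and 32.2 CPM in Control_captopril, and 40.8, 26.4 and 28.4 CPM in Control_water. GN_water lay below all other libraries, as it did for Enpep. Lnpep was higher in GN_captopril than in GN_water (0.40 ± 0.15 log2, edgeR adjusted p = 0.0407) and lower in GN_water than in Control_captopril (-0.43 ± 0.14, adjusted p = 0.0378). Each call was lost in 5 of the 12 fits that left out a library. The first was lost without GN_captopril replicate 1 (0.34, adjusted p = 0.130) or 2 (0.38, adjusted p = 0.104) and without GN_water replicate 1 (0.44, adjusted p = 0.0632), 2 (0.45, adjusted p = 0.0570) or 3 (0.46, adjusted p = 0.0542). The second was lost without Control_captopril replicate 1 (-0.31, adjusted p = 0.166) or 3 (-0.47, adjusted p = 0.0550) and without GN_water replicate 1 (-0.47, adjusted p = 0.0593), 2 (-0.49, adjusted p = 0.0547) or 3 (-0.49, adjusted p = 0.0511). On the deposited RPKM, with pseudocounts of 0.1 and 1, the first was 0.19 (adjusted p = 0.195) and 0.06 (adjusted p = 0.208) and the second -0.26 (adjusted p = 0.131) and -0.08 (adjusted p = 0.134). Against Control_water the value in GN_water was -0.34 ± 0.15 (adjusted p = 0.0668). DESeq2 called it (-0.36, adjusted p = 0.0411), as did edgeR without Control_captopril replicate 1 (-0.35, adjusted p = 0.0499) or Control_water replicate 2 (-0.46, adjusted p = 0.0224) or 3 (-0.42, adjusted p = 0.0488). Without Control_water replicate 1, the highest of that group, it was -0.12 (adjusted p = 0.435). The GN average was -0.19 ± 0.10 (adjusted p = 0.192) and the captopril average 0.25 ± 0.10 (adjusted p = 0.168). Without Control_water replicate 1 the GN average was -0.07 (adjusted p = 0.511), and the captopril average 0.36, past the threshold (adjusted p = 0.0155). The interaction was 0.31 ± 0.21 (adjusted p = 0.228), and 0.08 (adjusted p = 0.676) without that library.

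Atp6ap2 (chromosome X, 12587801 to 12617049, plus strand) encodes the (pro)renin receptor, which binds renin and its precursor and is also an accessory subunit of the vacuolar proton pump. Its level was 115, 110 and 114 CPM in GN_captopril, 132, 136 and 136 CPM in GN_water, 152, 143 and 151 CPM in Control_captopril, and 121, 113 and 113 CPM in Control_water. The 6 libraries with Xist all lay above the 6 with Y-linked transcripts, the reverse of Ace. The interaction was -0.62 ± 0.07 log2 (edgeR adjusted p = 6.86e-06), a mean difference of -0.31 between Y-linked and Xist libraries. Of 457 X-linked genes tested, 31.3% were lower and 16.8% higher in that contrast, beside 27.1% lower and 23.6% higher of all genes tested. Captopril-labelled libraries were thus lower than water-labelled ones in GN (-0.25 ± 0.05, adjusted p = 0.00102) and higher in controls (0.37 ± 0.05, adjusted p = 6.98e-05).

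Between groups with matching markers, Atp6ap2 was lower in GN_water than in Control_captopril (-0.15 ± 0.05 log2, edgeR adjusted p = 0.0348), with no overlap. That call was lost without Control_captopril replicate 1 (-0.13, adjusted p = 0.101) or replicate 3 (-0.13, adjusted p = 0.0957), the library with the most adrenal marker counts, and on the deposited RPKM (-0.07 with a pseudocount of 0.1, adjusted p = 0.236, and -0.06 with 1, adjusted p = 0.208). Leaving out replicate 3 of both captopril groups gave -0.13 (adjusted p = 0.103). GN_captopril against Control_water gave -0.03 ± 0.05 (adjusted p = 0.732). The GN average of -0.09 ± 0.03 had an adjusted p of 0.0668 in edgeR and of 0.0339 in DESeq2, and it passed in edgeR without GN_water replicate 3 (-0.11, adjusted p = 0.0418). It also passed in edgeR with DESeq2 size factors (-0.10, adjusted p = 0.0492). Without GN_water replicate 2 it passed narrowly (-0.11, with an adjusted p that rounds to 0.05). The captopril average was 0.06 ± 0.03 (adjusted p = 0.330).

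The promoters of Agt, Ace and Atp6ap2 are printed so that their sequences can be compared. All are abundant, and the interaction was negative for Agt and Atp6ap2 and positive for Ace. Each runs from 250 bases before to 50 bases after the start in RefSeq (GRCm38.p6), 5′ to 3′ on the gene's strand. Capitals mark TATAAA (the TATA box), GGGCGG (the GC box) and TGTTCT (a receptor half-site for androgens and glucocorticoids) on either strand, and where matches touch or overlap the capitals run together. RefSeq entries were found for 8 of the 9 genes. Agt (chr8:124569657-124569956, minus strand) has TATAAA with its first base at -30 and neither other motif. The somatic Ace promoter (chr11:105967698-105967997, plus strand) has TATAAA on the other strand at -31 and 4 GGGCGG matches, of which those at -140 and -136 overlap. Atp6ap2 (chrX:12587509-12587808, plus strand) has no TATAAA, 2 GGGCGG matches on the other strand and TGTTCT at -131. Among 32851 mouse promoters of this length, 13.6% hold TATAAA, 35.7% GGGCGG and 19.0% TGTTCT. A match here is a description of the letters, and binding was not measured.
Agt promoter: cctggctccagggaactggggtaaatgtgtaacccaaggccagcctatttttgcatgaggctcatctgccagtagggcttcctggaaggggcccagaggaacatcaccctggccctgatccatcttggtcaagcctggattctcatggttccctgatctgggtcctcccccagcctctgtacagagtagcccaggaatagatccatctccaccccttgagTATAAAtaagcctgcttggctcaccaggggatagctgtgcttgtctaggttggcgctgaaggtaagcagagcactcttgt
Ace promoter: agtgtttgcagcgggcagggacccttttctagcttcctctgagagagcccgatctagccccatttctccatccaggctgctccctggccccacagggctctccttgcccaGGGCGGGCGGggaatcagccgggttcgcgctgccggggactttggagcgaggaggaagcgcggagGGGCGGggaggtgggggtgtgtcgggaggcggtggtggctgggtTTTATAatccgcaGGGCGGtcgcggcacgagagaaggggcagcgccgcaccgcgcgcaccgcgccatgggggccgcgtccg
Atp6ap2 promoter: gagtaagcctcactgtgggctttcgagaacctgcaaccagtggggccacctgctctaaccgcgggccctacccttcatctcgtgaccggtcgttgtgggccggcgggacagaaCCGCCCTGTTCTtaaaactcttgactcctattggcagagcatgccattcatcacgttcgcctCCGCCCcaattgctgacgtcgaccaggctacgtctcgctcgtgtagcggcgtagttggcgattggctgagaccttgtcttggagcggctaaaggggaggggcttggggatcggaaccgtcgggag

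A further 19 genes of the pathway were listed, of which 14 were tested. In the GN average 2 were higher and 4 lower, beside 16.3% and 14.6% of all genes tested, with a median of 0.00 log2. Arap1, a protein that helps carry the type 1 receptor to the cell surface, rose by 0.52 ± 0.05 (edgeR adjusted p = 5.59e-06), with 53.1 to 59.6 CPM in GN_captopril and 57.1 to 68.2 in GN_water against 40.8 to 41.8 in Control_captopril and 40.7 to 42.6 in Control_water. Rnpep, aminopeptidase B, rose by 0.13 ± 0.05 (adjusted p = 0.0484). Its low values lay in Control_captopril, at 40.8 to 47.3 CPM. It had 54.8 to 59.2 CPM in GN_captopril, 53.6 to 58.5 in GN_water and 56.7 to 61.7 in Control_water. Against Control_water, Rnpep was at -0.08 ± 0.07 in GN_water (adjusted p = 0.350) and -0.06 ± 0.07 in GN_captopril (adjusted p = 0.585). Ren1, renin itself, fell by 1.45 on the log2 scale (SE 0.15, adjusted p = 1.45e-05). Mme, neprilysin, and Nln, neurolysin, which also cut angiotensin peptides, fell by 0.22 (SE 0.07, adjusted p = 0.0351) and 0.15 (SE 0.05, adjusted p = 0.0308). In the captopril average Rnpep alone was called, lower by 0.19 (SE 0.05, adjusted p = 0.0286), beside 3.34% of all genes called lower. Here too the low group was Control_captopril. Captopril over water was -0.40 ± 0.07 for Rnpep in controls (adjusted p = 0.000445) and 0.01 ± 0.07 in GN (adjusted p = 0.883).

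In the interaction 7 of these 14 were higher and 3 lower, beside 23.6% and 27.1% of all genes tested. Ren1 had the largest value, 8.61 ± 0.33 log2 (edgeR adjusted p = 2.40e-10). ACE inhibitors are known to raise renin in the kidney, and here it averaged 543 ± 132 CPM in GN_captopril and 24.8 ± 4.90 in GN_water, but 74.8 ± 10.1 in Control_captopril and 1340 ± 394 in Control_water (SD, n = 3 each). Renin RNA thus followed the captopril label in GN and went against it in controls. Whether the control labels are exchanged was not tested, and groups are given as labelled throughout. With the labels of both control groups exchanged, the GN average would stay as it is. The captopril average would become the present interaction, divided by 2, and the interaction the present captopril average, times 2. Captopril could then not be told apart from the Y-linked and Xist split. Ren1 was high in the same 6 libraries in which Ace and Mas1 were high and Atp6ap2 was low. Mme was at -1.55 ± 0.15 (adjusted p = 1.64e-06), and Atp6ap1, another accessory subunit of the proton pump and X-linked, at -0.24 ± 0.06 (adjusted p = 0.00630). Nln (0.68 ± 0.10, adjusted p = 7.24e-05), Prcp (0.53 ± 0.07, adjusted p = 5.17e-05), Rnpep (0.41 ± 0.09, adjusted p = 0.00235), Dpp3 (0.35 ± 0.08, adjusted p = 0.00336) and Ctsa (0.29 ± 0.09, adjusted p = 0.0186), all peptidases, were higher. Of the 5 genes not tested, Ctsg and Mrgprd had 0 counts, while Agtr2, the type 2 receptor gene, had 38 counts over all libraries, Cma1 43 and Ace3 31.

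**Figure D5:**
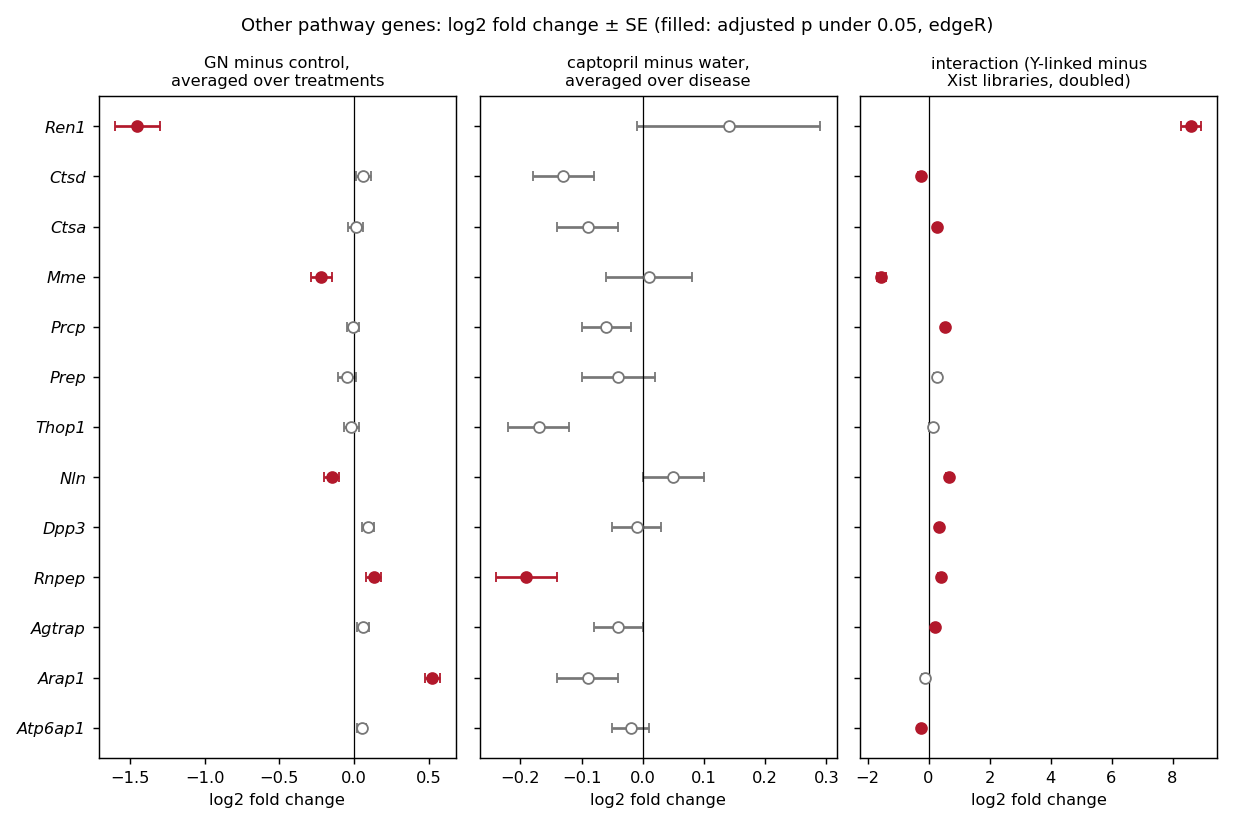
Log2 fold change (x axis, scales differ between panels) with SE bars of the other pathway genes drawn here, in the same 3 contrasts; filled points passed an adjusted p of 0.05 in edgeR. Arap1 at 0.52 and Ren1 at -1.45 are the outermost points of the GN panel, and Ren1 at 8.61 of the interaction panel.

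The genes most like each member were those with the smallest root mean square (RMS) difference in centred log2 CPM over the 12 libraries, among 12791 candidates. For Ace they included Dhrs4 (0.111) and Hook2 (0.111), where the SD of Ace itself was 0.324. For Agt they were Tmc4 (0.0645), Mif4gd (0.0978) and Sort1 (0.0999), with an SD of 0.245 for Agt. Enpep was most like Ppm1b, Opa1 and Ttc38, Lnpep like Hmbox1, Tnks and Uhmk1, and Atp6ap2 like Smad5, Pgam1 and Ero1l, at RMS differences of 0.0402 to 0.0710. Agtr1a was most like Arf3, Slc6a8 and Nudcd3 at 0.0413 to 0.0432, beside an SD of 0.0838. Mas1 was most like Airn (0.234), then Tm4sf4 (0.279) and Cckar (0.323), with an SD of 0.777.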

How the data were processed

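The authors deposited expected counts (estimated counts of reads per gene symbol, not scaled for depth) and RPKM values for 12 libraries. The submitters' processing notes name Bowtie2, Partek and the mm10 genome. No source used here gives versions, annotation, filters or the strand setting of counting. Of the count entries, 86.45% were whole; reads shared between features may have been divided, and expected counts were rounded before testing. The deposited RPKM values divide by lengths near the genomic span of the members (ratios of 0.99 to 1.13), except for Anpep (0.555). Agtr1b was left out of this check. RPKM values served only as an alternative, on log2(RPKM + 0.1) or log2(RPKM + 1).

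Genes were kept with filterByExpr (minimum count 10, minimum total 15), scaled by TMM and fitted by quasi-likelihood in edgeR 4.0.16 under R 4.3.3. All 12 libraries entered the fit, with a mean for each group. In each of 9 comparisons, Benjamini-Hochberg adjustment ran over 14618 genes (threshold 0.05). CPM are edgeR values with TMM, and the SE of a log2 fold change came from its F statistic. Alternatives used DESeq2 1.42.0, limma 3.58.1, other filters and scalings, each library left out, a replicate block and fits without adrenal-marker libraries. Scripts were tested on simulated data. The members and lists were chosen with earlier results of these data known. All 9 members are named; other pathway genes are named, up to 10 by smallest adjusted p, where an average or the interaction called them, and 5 untested ones by count. Some genes that met the naming rules are not reported here. Floors cover counting error only. Exons, coding sequences and coordinates came from GENCODE M21, and promoters from RefSeq; they need not match the authors' annotation.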

Additional observations from a re-analysis of the deposited data

Results flagged for a closer look

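For 6 of the 8 genes tested, the captopril effect differed between GN and controls in edgeR, as log2 interaction ± SE over 12 libraries. Mas1 had 4.14 ± 0.60 (adjusted p = 7.64e-05), Ace 1.13 ± 0.14 (adjusted p = 2.54e-05), Enpep 0.52 ± 0.11 (adjusted p = 0.00170) and Agtr1a 0.23 ± 0.08 (adjusted p = 0.0345), all higher. Agt had -0.72 ± 0.14 (adjusted p = 0.000623) and Atp6ap2 -0.62 ± 0.07 (adjusted p = 6.86e-06). The same contrast called 50.7% of all genes, and it equals libraries with Y-linked transcripts minus libraries with Xist, doubled, so the 2 readings cannot be told apart. With the labels of both control groups exchanged, it would also be the captopril average, times 2, and whether they are exchanged was not tested. Of the 6, Ace, Mas1 and Atp6ap2 separated the Y-linked from the Xist libraries without overlap. Enpep, Agtr1a and Agt did not: for Enpep GN_water alone lay apart from the other groups, and for Agt GN_captopril alone.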

How the results depend on the processing

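The 9 comparisons were refitted under the listed alternatives, and 1346 of the members' fold changes kept their direction and side of the threshold, 46 fell short of it, 22 passed it and 65 changed sign. In the GN average, where 1 gene was called, DESeq2 called 3, DESeq2 size factors in edgeR 2, limma on either RPKM scale 0 and the fit without the libraries richest in adrenal markers (replicate 3 of GN_captopril and of Control_captopril) 0; leaving out 1 library gave 1 to 2. In the captopril average the count was 0 without the adrenal-marker libraries and 0 to 2 with 1 library left out. On RPKM the interaction called 3 in place of 6 and GN_captopril over GN_water 4 in place of 7, but Mas1 fell under the RPKM minimum, so 7 genes were tested in place of 8 and 1 call of each was lost for want of a test. The calls lost in a test were of Agtr1a and Enpep in the interaction and of Agtr1a and Lnpep in GN_captopril over GN_water. With 1 library left out, GN_captopril over GN_water called 4 to 7, GN_water over Control_captopril 1 to 3 and GN_captopril over Control_water 0 to 1; DESeq2 called 1 there.

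The sign changes were of values near 0, none of them called except the Agtr1a interaction (-0.01 on either RPKM scale). On log2(RPKM + 0.1) and log2(RPKM + 1), Anpep was 0.03 and 0.03 in the GN average, -0.15 and -0.13 in the interaction, 0.11 and 0.09 in GN_water over Control_water, -0.04 and -0.04 in GN_captopril over Control_captopril, -0.06 and -0.05 in GN_captopril over GN_water, 0.09 and 0.08 in Control_captopril over Control_water, 0.01 and 0.01 in GN_water over Control_captopril, and 0.05 and 0.04 in GN_captopril over Control_water. Agt was 0.03 on both in the GN average. Agtr1a was 0.09 and 0.05 in GN_water over Control_water, 0.05 and 0.03 in Control_captopril over Control_water, and 0.03 and 0.02 in GN_water over Control_captopril. Enpep was 0.01 in Control_captopril over Control_water and 0.02 and 0.01 in GN_captopril over Control_water, where Atp6ap2 was 0.02. Without the adrenal-marker libraries Anpep was 0.02 in the GN average and 0.05 in GN_captopril over Control_water, Mas1 0.04 there, and Lnpep 0.01 in GN_captopril over Control_captopril. With only the groups compared in the fit, Anpep was 0.01 in GN_captopril over Control_water.

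With 1 library left out, values ranged in the GN average from -0.01 to 0.04 for Agtr1a, -0.10 to 0.01 for Anpep and -0.08 to 0.01 for Agt, and in the captopril average from -0.09 to 0.03 for Ace and 0.00 to 0.10 for Anpep. Anpep ranged from -0.01 to 0.22 in the interaction, -0.21 to 0.02 in GN_water over Control_water, -0.06 to 0.07 in GN_captopril over Control_captopril, -0.08 to 0.08 in Control_captopril over Control_water and -0.07 to 0.09 in GN_captopril over Control_water. Lnpep ranged from -0.11 to 0.09 in GN_captopril over Control_captopril, -0.04 to 0.32 in Control_captopril over Control_water and -0.06 to 0.29 in GN_captopril over Control_water, where Mas1 ran from -0.75 to 0.04, Enpep from -0.12 to 0.02 and Atp6ap2 from -0.05 to 0.00. Over all genes, the captopril average called 952 and, with 1 library left out, 523 to 1471. GN_captopril over Control_water called 1765, but 968 without GN_captopril replicate 3, 975 without Control_water replicate 2, 938 without the adrenal-marker libraries and 951 with only its own groups in the fit. RPKM moved the median of all genes by up to -0.24 (interaction). The RPKM fits used no TMM factors, so they differ from the main fit in scaling as well. In the main fit those factors ran from 0.932 in Control_water replicate 2 to 1.084 in GN_water replicate 3. Their part in the shift and in the calls lost on RPKM was not tested.

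The labels do not say whether library numbers pair the groups. Of 18 same-number correlations, 4 passed 0.1 (range -0.235 to 0.236), and 6 of 12 libraries correlated best with their own number. These values were not set against a chance level, so they cannot decide whether the numbers pair libraries. With a replicate block the members called were 1 in the GN average, 1 in the captopril average, 6 in the interaction, 6 in GN_water over Control_water, where Lnpep was then called (-0.32, adjusted p = 0.0340), 4 in GN_captopril over Control_captopril, 7 in GN_captopril over GN_water, 3 in Control_captopril over Control_water, 3 in GN_water over Control_captopril and 0 in GN_captopril over Control_water. Low counts limit Mas1 and Agtr1b.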
